A study of Mus musculus with 2 samples.

Results

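The genes described here are *Cdh1*, *Cdh2*, *Cdh3*, *Cdh11*, *Cdh13* and *Epcam*, 6 of the 19550 genes counted, chosen by name as cadherins of adherens junctions, the lipid-anchored cadherin *Cdh13* and the epithelial adhesion molecule *Epcam*. Their UMI (unique molecular identifier, 1 per captured transcript) counts were read in 7808 single cells of wild-type C57BL/6 mice. The cells came from the esophagus, the stomach and the junction between them, the gastroesophageal squamocolumnar junction (GE-SCJ), of embryos at day 15 (E15, 6 mice per the labels) and day 19 (E19, 2 mice), 2-day-old pups (2 mice) and 8-week-old adults (3 mice). No agent or engineered allele is named in the labels. The study asked how squamous and columnar epithelium form on either side of this junction, and which stromal cells lie beneath them. Cells of a region and stage carried 1 tag and were sequenced together in 1 library, so each of the 11 regions and stages with cells was a single pooled sample. The labels name an adult stomach too, and no cell carries that combination. The methods instead speak of cells of 3 mice combined, and the number of mice behind a sample was not settled. With 1 sample a group, no test was run, and every interval below is an exact 95% interval that covers counting error only, not the spread between mice.

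Classical cadherins bind the same cadherin on a neighbouring cell, and their cytoplasmic tails hold catenins that link to actin. E-cadherin (*Cdh1*) is the cadherin of epithelial sheets, P-cadherin (*Cdh3*) is known from basal layers of stratified epithelia, N-cadherin (*Cdh2*) from neural and mesenchymal cells, and cadherin-11 (*Cdh11*) from mesenchyme. T-cadherin (*Cdh13*) has no cytoplasmic tail and is known from vessels and basal keratinocytes, and *Epcam* encodes a membrane protein of simple epithelia that is not a cadherin.

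Cells were grouped by the authors' cluster labels, 9 labels joined here into 8 classes. Both squamous labels formed the squamous class, the label Stromal is called fibroblast, and the label Stromal-2 is called second stromal. Levels are CPM, the UMIs of a gene per 1000000 UMIs of a group. Cells had a median of 10424 UMIs, samples had between 143 and 1403 cells with medians from 4956.5 (pup esophagus) to 15676 UMIs (pup stomach), and class medians ran from 7900 UMIs in neural to 25118 in columnar cells. Of 87 groups of class, region and stage, 33 held under 20 cells. Markers bore out most labels, with 94.1% of squamous, 98.8% of columnar and 95.6% of fibroblast cells holding more UMIs of their own marker list than of any other. The share was 86.3% in smooth muscle, 78.5% in immune, 75.2% in endothelial and 62.1% in neural cells. In second stromal cells the share was 2.16%, since the fibroblast list summed to 10248 CPM and the mesothelial list to 2090 CPM. The mesothelial markers *Upk3b* (864 CPM), *Wt1* (388 CPM) and *Msln* (331 CPM) were highest there, so this class is given by its label. The columnar marker list summed to between 1631 and 2421 CPM in every class other than columnar, and the source of these UMIs was not tested. Immune cells serve below as a reference for stray UMIs, with the limit that some dendritic cells are known to express *Cdh1* and *Epcam*. In the stomach 21 of the 24 *Epcam* UMIs of pup immune cells, and 34 of 90 at E19, lay in 1 cell. For these 2 genes fibroblasts are therefore given as well. The columnar class includes cells of the esophagus, among them 9 at E15 and 20 at E19 with fibroblast markers at 8045 and 5807 CPM. Without the esophagus *Cdh11* in columnar cells was 5.88 CPM, and *Cdh1* and *Epcam* stayed within their intervals.

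The 6 genes divided among the classes in 4 ways, with *Cdh1* and *Epcam* high in epithelium, *Cdh11* in stroma, *Cdh2* in neural cells, and *Cdh3* and *Cdh13* found in squamous as well as in non-epithelial classes. Columnar cells had 229 CPM of *Cdh1* (interval 224 to 233), and squamous cells had 197 CPM (188.5 to 205). Its next level, 41.0 CPM (30.9 to 53.3) in second stromal cells, overlapped the 28.4 CPM (23.3 to 34.4) of immune cells and lay above fibroblasts at 19 CPM (17.5 to 20.6) and smooth muscle at 18.4 CPM. By stage over all regions, second stromal cells had 15.9, 29.3 and 82.2 CPM of *Cdh1* at E15, E19 and pup. The pup interval (55.8 to 117) lay above that of pup immune cells (20.1 to 50.8). *Epcam* stood at 545 CPM in columnar and 314 CPM in squamous cells, against 58.8 CPM in second stromal cells, 47.3 CPM in immune cells and 17.1 CPM in fibroblasts. The order of *Cdh11* was fibroblast 388 CPM (381 to 395), second stromal 352 CPM (321 to 385), smooth muscle 225 CPM (216 to 234) and neural 37.9 CPM (31.9 to 44.7), of which the first 2 had overlapping intervals. Immune cells had 17.5 CPM of *Cdh11*, columnar cells 7.82 CPM.

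*Cdh2* was at 515 CPM (492 to 538) in neural cells, and the next class, second stromal, had 37.2 CPM (27.6 to 49.1), followed by fibroblasts at 28.4 CPM and smooth muscle at 20.2 CPM. Columnar (1.92 CPM) and squamous cells (1.49 CPM) did not exceed the 2.66 CPM of immune cells. *Cdh3* was highest in second stromal cells at 115 CPM (97.3 to 134). Smooth muscle (25.6 CPM, 22.7 to 28.8) and squamous cells (23.4 CPM, 20.6 to 26.5) could not be ordered, fibroblasts had 7.92 CPM, and columnar cells at 1.41 CPM lay within the immune background of 2.39 CPM (1.09 to 4.54). *Cdh13* was at 37.1 CPM (28.7 to 47.1) in endothelial and 32.7 CPM (29.4 to 36.3) in squamous cells, whose intervals overlapped, and at 8.11 CPM in smooth muscle, against 2.82 CPM in columnar and 3.19 CPM in immune cells. By stage over all regions, smooth muscle had 2.43, 8.31, 20.9 and 39.5 CPM of *Cdh13* from E15 to adult. The last is from 11 UMIs in 46 cells, none of them of the stomach, so stage is mixed with region. Adult fibroblasts had 25.1 CPM from 7 UMIs. The labels were made from these same cells, so the class levels are a description.

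**Figure D1:**
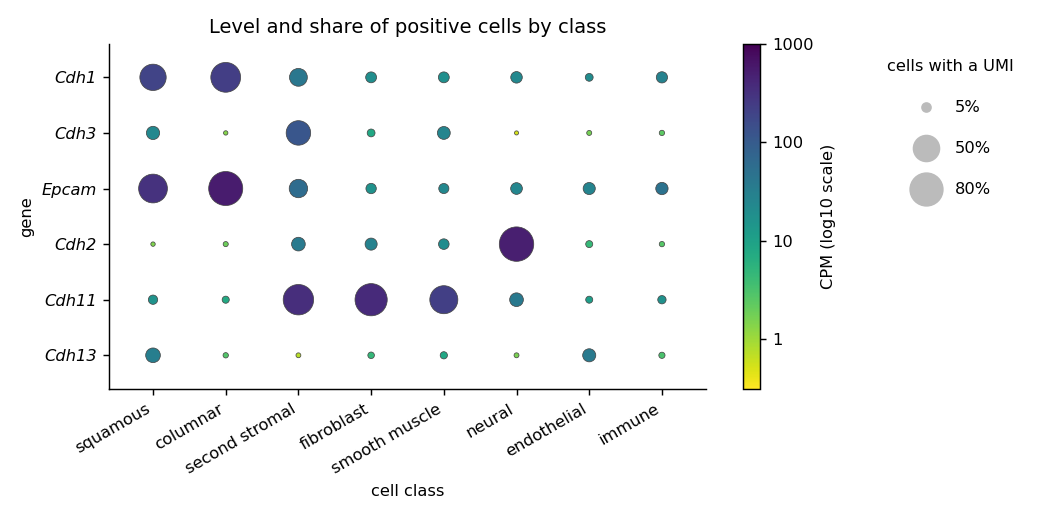
Each dot is a gene (rows) in a cell class (columns), with colour for the CPM of the class on a log10 scale and area for the share of cells with at least 1 UMI after thinning each cell to 5000 UMIs. The darkest dots of the 2 epithelial columns are *Cdh1* and *Epcam*, that of neural cells is *Cdh2* (515 CPM), and *Cdh3* has its darkest dot in second stromal cells (115 CPM).

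Depth differed between classes, so shares of cells with a UMI were compared after thinning each cell to 5000 UMIs, which left out 130 squamous, 52 columnar, 502 fibroblast, 198 smooth muscle, 83 neural, 19 second stromal, 50 endothelial and 101 immune cells. *Cdh1* was then found in 67.1% of columnar cells (95.7% before thinning) and 52.2% of squamous cells (70.7%), against 8.70% of immune cells (17.5%) and 8.10% of fibroblasts. *Epcam* was found in 87.9% of columnar, 62.5% of squamous and 10.7% of immune cells. *Cdh2* was found in 89.9% of neural cells (90.0% before thinning) and 1.19% of immune cells, *Cdh11* in 78.5% of fibroblasts (85.0%), 59.2% of smooth muscle and 4.35% of immune cells. *Cdh3* was found in 45.0% of second stromal cells (60.4%), 12.5% of squamous (24.9%), 11.7% of smooth muscle (19.4%) and 1.19% of immune cells. *Cdh13* was found in 15.5% of squamous cells (28.5%) and 12.1% of endothelial cells, against 1.98% of immune cells. Each share had the same leading class as the level in CPM, apart from *Cdh13*, whose leading levels overlapped. The shares speak of transcripts captured at that depth, and a cell without a UMI may still express the gene.

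On GRCm38, 4 of the 6 genes lie on chromosome 8. *Cdh3* (8, 106510891 to 106557297, plus strand) ends 46053 bases before *Cdh1* (8, 106603351 to 106670246, plus strand), and *Cdh11* (8, 102632095 to 102785642, minus strand) and *Cdh13* (8, 118283733 to 119324921, plus strand) lie farther off. The neighbours *Cdh3* and *Cdh1* did not share a pattern, with a Pearson r of log2(CPM + 10) of 0.12 over 54 groups of at least 20 cells, and this r is a description over groups that share a library.

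*Epcam* (17, 87635979 to 87651129, plus strand) was the 1 gene of the 6 with an upstream sequence in the RefSeq table used. It is shown because E-boxes, the motif class bound by the Snail and Zeb repressors whose levels are given further on, can be read in it. The 250 bases before the start on GRCm38.p6 (chr17:87635729-87635978, plus strand) are given 5′ to 3′, with the motif CACCTG and its reverse complement CAGGTG in capitals.
Epcam: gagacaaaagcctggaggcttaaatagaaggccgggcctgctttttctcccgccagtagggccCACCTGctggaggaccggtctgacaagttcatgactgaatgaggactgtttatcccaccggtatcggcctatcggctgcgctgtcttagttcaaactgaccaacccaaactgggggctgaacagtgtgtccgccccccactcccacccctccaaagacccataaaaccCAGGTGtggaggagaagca
The 2 matches begin at bases 64 and 232. Either motif occurs in 5657 of 32851 windows of the same length (17.2%), and a match is a description, not a site.

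In squamous epithelium, *Epcam* was lower in adults than at E15 in both regions with enough cells, while *Cdh1* differed less between these stages. *Epcam* stood at 432 CPM at E15, 421 CPM at E19, 486 CPM in pups and 117 CPM in adults in the esophagus, from 64, 123, 85 and 232 cells. In the GE-SCJ it stood at 719.95, 529, 305 and 90.2 CPM, from 47, 34, 46 and 87 cells. The adult intervals, 106 to 130 CPM and 75.9 to 106 CPM, overlapped no earlier stage of the same region. The log2 ratio of adult to E15 was -1.88 (-2.08 to -1.68) in the esophagus and -2.99 (-3.26 to -2.72) in the GE-SCJ, where the median of all genes with at least 100 UMIs was -0.38 and -0.31.

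*Cdh1* stood at 205, 252, 76.1 and 151 CPM from E15 to adult in the esophagus and at 301, 345, 215 and 181 CPM in the GE-SCJ. Its adult to E15 ratios, -0.44 (-0.68 to -0.19) and -0.73 (-0.98 to -0.49), lay nearer to the medians of all genes than those of *Epcam*. The mix of basal and suprabasal cells, split further on, differed between samples, at 7 and 25 cells in the GE-SCJ at E19. The esophagus had 52 and 11 at E15, and 116 and 109 in adults. On the basal side alone, *Cdh1* went from 149 CPM at E15 to 79.0 CPM in adults in the esophagus, and from 251 to 114 CPM in the GE-SCJ. On the suprabasal side it went from 432 to 186 CPM and from 436 to 209 CPM. Each side was thus lower in adults, by more than the ratios over all squamous cells show. The part of this mix in the *Cdh1* and *Epcam* levels was not tested. Of the 3 genes of the 6 with at least 100 UMIs in the esophageal comparison, *Epcam* and *Cdh11* were past 2-fold, both lower in adults, and *Cdh1* was not, where 29.3% of all genes tested were past 2-fold. *Cdh11* reached that minimum only through E15, with 85 UMIs against 17 in adults, so its place in the count says little. *Cdh11* in esophageal squamous cells stood at 86.5 CPM at E15 and 22.8, 9.25 and 5.30 CPM at later stages. The E15 level came from 27 of 64 cells, with up to 14 UMIs in a cell, and the fibroblast marker list summed to 1872 CPM in these cells against 351 CPM in GE-SCJ squamous cells of the same stage, where *Cdh11* was at 3.32 CPM. Its part in the *Cdh11* level was not tested.

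Since *Cdh1* and *Epcam* UMIs come from the same cells, their ratio does not depend on the total UMIs of a group. Squamous cells of the esophagus had 2.11 *Epcam* UMIs per *Cdh1* UMI at E15 (1.78 to 2.51), 1.67 at E19, 6.39 in pups (4.99 to 8.28) and 0.774 in adults (0.674 to 0.887). Those of the GE-SCJ had 2.39, 1.53, 1.42 and 0.498 (0.404 to 0.612). In the pup esophagus the 56 cells of the first squamous label held 167 *Epcam* and 66 *Cdh1* UMIs. The 29 cells of the second label, described next, held 306 and 8. Columnar cells had 3.30, 2.34 and 2.07 in the stomach from E15 to pup, and 3.19, 2.44, 2.15 and 2.55 in the GE-SCJ with adults last. The adult squamous ratios, over basal and suprabasal cells together, were under 1 and those of every columnar group drawn were above 2. By the split given further on, adult basal cells had more *Epcam* than *Cdh1*, at 162 against 79.0 CPM in the esophagus. In the GE-SCJ they had 125 against 114 CPM. Adult suprabasal cells had less, at 96.3 against 186 CPM and 76.1 against 209 CPM. The part of this mix in the ratios was not tested. The share of thinned squamous cells with UMIs of both genes was 57.7% at E15, 49.6% at E19, 28.9% in pups and 16.8% in adults, and in columnar cells it was 60.8%, 62.6%, 56.7% and 56%.

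**Figure D2:**
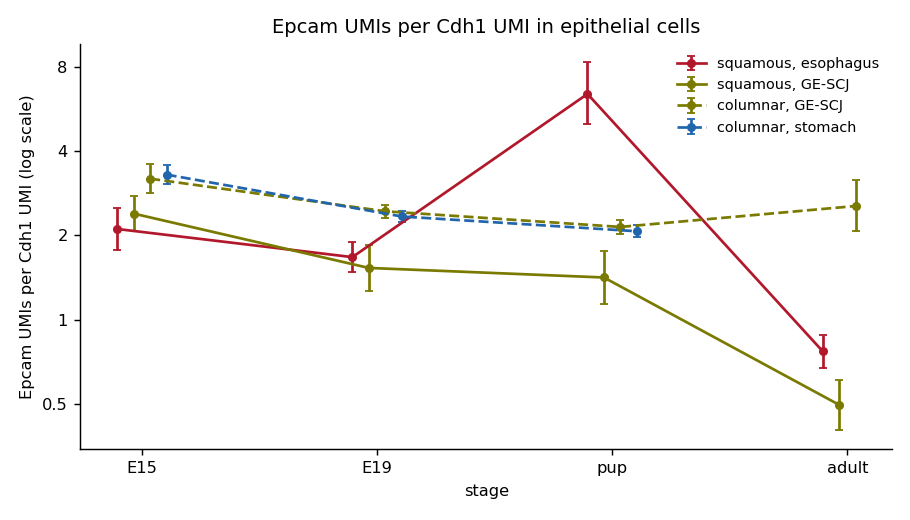
Points are *Epcam* UMIs per *Cdh1* UMI (log scale) in 1 pooled sample per class, region and stage, and bars are exact 95% intervals for counting error. The pup esophagus stands apart at 6.39, where 29 of 85 cells had the second squamous label, with 306 *Epcam* and 8 *Cdh1* UMIs. The adult squamous samples, basal and suprabasal cells together, are lowest at 0.774 and 0.498.

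The pup esophagus held cells of a second squamous label, Squamous Epithelial-2, and the members differed between the labels. The 56 cells of the first label had 116 CPM of *Cdh1* (89.4 to 147), 293 CPM of *Epcam* (249.8 to 340.4), 54.3 CPM of *Cdh3* and 140.1 CPM of *Cdh13*. The 29 cells of the second had 19.9 CPM of *Cdh1* (8.60 to 39.2) and 762 CPM of *Epcam* (679 to 852), with no UMI of *Cdh3* or *Cdh13*, where 3 counts would be 7.47 CPM. The second-label cells also had 5491 CPM of *Krt7*, a keratin of simple and superficial epithelia, against 96.3 CPM, and no UMI of *Trp63*, the basal squamous factor, against 333 CPM. Of the squamous keratins, *Krt13* (6915 against 1456 CPM) and *Krt4* (1302 against 876 CPM) were higher in them, and *Krt5* (12.4 against 732 CPM) was lower. Pup against E19 in the esophagus gave a log2 ratio of *Epcam* of 0.21 (0.04 to 0.38) over both labels and -0.52 (-0.77 to -0.27) over the first alone. *Cdh1* gave -1.71 (-2.08 to -1.35) and -1.15 (-1.54 to -0.77).

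In columnar epithelium *Epcam* was lower at E19 and in pups than at E15 in both regions. It stood at 767, 583 and 410.5 CPM in the stomach at E15, E19 and pup, from 140, 366 and 351 cells, and at 845, 625 and 462 CPM in the GE-SCJ, from 53, 274 and 291 cells. The 19 adult columnar cells of the GE-SCJ had 658 CPM (588 to 733), above the pup level. The stomach ratio of pup to E15 was -0.90 (-0.97 to -0.83), and the median of all genes tested was -0.36. *Cdh1* stood at 233, 249.6 and 198 CPM in the stomach and at 265, 256, 215 and 258 CPM in the GE-SCJ with adults last. Neither *Cdh1* nor *Epcam* was past 2-fold from E15 to pup in the stomach, where 27.9% of all genes tested were.

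In the GE-SCJ, where both epithelia came from the same samples, their *Cdh1* levels over all squamous cells were within 1.5-fold of each other. By the split given below, basal and suprabasal cells had 251 and 436 CPM at E15, against 265 CPM in columnar cells. In pups they had 197 and 250 against 215 CPM, and in adults 114 and 209 against 258 CPM. The log2 ratio of squamous to columnar was 0.18 (-0.05 to 0.42) at E15, 0.44 (0.21 to 0.66) at E19, 0.01 (-0.25 to 0.25) in pups and -0.52 (-0.82 to -0.21) in adults. For *Epcam* it was -0.23, -0.24, -0.59 and -2.86 (-3.16 to -2.57), so the adult difference was the largest of the 4. The pup value was -1.44 without the 10% of cells that had the most UMIs, -1.05 as a mean of cell CPM and -0.28 with the library size that leaves out mitochondrial, ribosomal protein and hemoglobin genes. At E15 neither of the 2 genes tested was past 2-fold, with a background of 9.67% of genes. In pups 1 of 3 was, *Cdh13*, with a background of 24.1%, and *Epcam* passed as well under the first 2 of those settings. *Cdh13* reached the minimum of UMIs only through squamous cells, with 80 UMIs against 43 in columnar cells, so its place in the count says little.

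**Figure D3:**
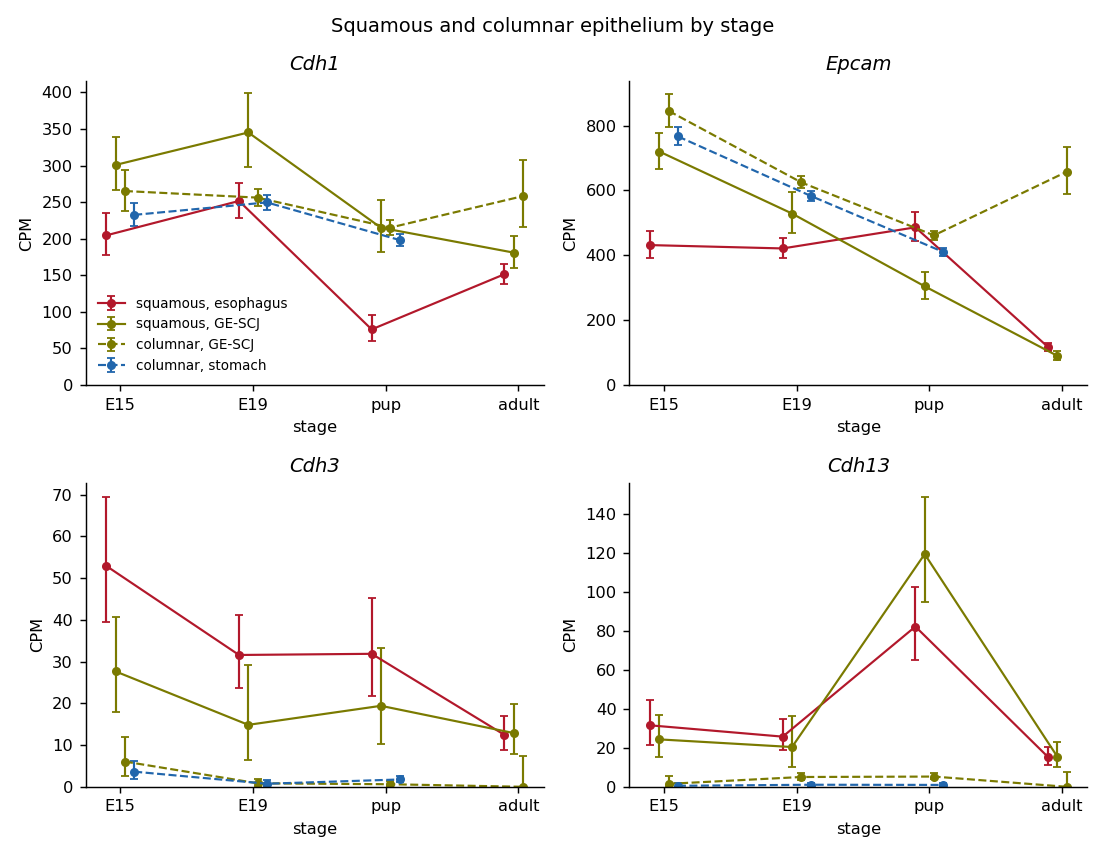
CPM of 4 genes by stage in squamous (solid lines) and columnar cells (dashed), coloured by region, with exact 95% counting intervals. *Epcam* of the adult squamous samples is near 100 CPM and that of the adult columnar sample at 658 CPM, while *Cdh13* peaks in the squamous cells of both pup samples (82.2 and 119 CPM).

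*Cdh3* was low in squamous cells and lower still in columnar cells. Esophageal squamous cells had 52.9 CPM at E15 (39.5 to 69.4), 31.6 at E19, 31.9 in pups and 12.5 in adults (8.90 to 17.0). GE-SCJ squamous cells had 27.6, 14.8, 19.4 and 12.9 CPM, and the E15 ratio of esophagus to GE-SCJ was 0.91 (0.20 to 1.64). Columnar cells had 6.04, 0.838 and 0.610 CPM in the GE-SCJ and 3.63, 0.733 and 1.75 CPM in the stomach from E15 to pup, and no UMI in the 19 adult cells, where 3 counts would be 6.05 CPM. The squamous to columnar ratio in the GE-SCJ was 2.08 (0.94 to 3.36) at E15, 4.10 (2.50 to 5.76) at E19 and 4.84 (3.37 to 6.50) in pups, from 25 against 8, 8 against 6 and 13 against 5 UMIs. All 3 intervals lay above 0. After thinning, 22.4% of esophageal squamous cells at E15 had a *Cdh3* UMI (12.5% to 35.3%) and 8.19% in adults (4.55% to 13.4%). By the split given below, the esophagus had 52 basal and 11 suprabasal cells at E15, and 116 and 109 in adults. On the basal side alone, esophageal *Cdh3* was at 65.6, 52.3, 58.9 and 26.3 CPM from E15 to adult. The part of this mix in the stage levels was not tested.

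*Cdh13* in squamous cells was highest in pups. The levels were 31.6, 25.7, 82.2 and 15.3 CPM in the esophagus and 24.3, 20.4, 119 and 15.5 CPM in the GE-SCJ. The pup intervals, 65.2 to 102 and 94.7 to 149 CPM, overlapped those of no other stage. The log2 ratio of pup to E19 was 1.66 (1.12 to 2.22) and 2.44 (1.56 to 3.45), and of adult to pup -2.42 (-2.96 to -1.89) and -2.91 (-3.62 to -2.25). Without the second label the first of these was 2.39 (1.84 to 2.94). The share of thinned cells with a *Cdh13* UMI was 33.3% in pup esophagus and 38.1% in pup GE-SCJ, against 2.99% to 20.7% at other stages. Squamous cells exceeded GE-SCJ columnar cells of pups by 4.49 (3.95 to 5.06), 119 against 5.25 CPM. The samples also differed in their mix of basal and suprabasal cells, split as described next. The GE-SCJ had 7 basal and 25 suprabasal cells at E19, and 32 and 11 in pups. On the basal side alone, esophageal *Cdh13* was at 39.9, 45.2, 166 and 45.8 CPM from E15 to adult. The part of this mix in the stage ratios was not tested.

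Within squamous cells the members were split between the basal and the suprabasal side. Each cell with at least 10 keratin UMIs was put on the side with more UMIs, *Krt5*, *Krt14* and *Krt15* for basal and *Krt13* and *Krt4* for suprabasal, which used 709 of 730 cells, 405 basal and 304 suprabasal, with 38 near the cut. *Cdh3* had 43.2 CPM on the basal and 7.61 CPM on the suprabasal side (log2 ratio 2.48, 2.01 to 2.98), and *Cdh13* 63.5 and 7.61 CPM (3.03, 2.58 to 3.52). *Cdh1* went the other way, with 146 and 238 CPM (-0.71, -0.84 to -0.58). *Epcam* had 344 and 283 CPM (0.28, 0.18 to 0.38), a ratio that was -0.68 with *Krt14* and *Krt13* alone and that differed in sign between samples. *Cdh11* had 29.2 and 5.19 CPM (2.46, 1.89 to 3.07), with 106 against 16.2 CPM in the E15 esophagus, where fibroblast markers were high, and 0.30 (-1.28 to 1.77) in the adult esophagus.

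In single samples *Cdh13* in adults was at 45.8 CPM on the basal and 0.921 CPM on the suprabasal side in the esophagus, and at 50.4 and 0.917 CPM in the GE-SCJ. In the GE-SCJ at E15 its ratio was 0.25, with an interval that reached 0 (-1.15 to 1.87). In pup GE-SCJ its ratio was 1.05 (0.27 to 1.89), with 72.0 CPM on the suprabasal side. *Cdh3* was higher on the basal side in all 7 samples with at least 10 cells a side, with intervals above 0 in 5 of them. The GE-SCJ at E15 (0.18, -1.12 to 1.66) and pup (1.24, -0.65 to 3.70) were the exceptions. *Cdh1* was lower on the basal side in 6 of the 7, with ratios from -1.54 in the esophagus at E15 to -0.35 in pup GE-SCJ, where the interval reached 0 (-0.85 to 0.16), and higher in pup esophagus (1.09, 0.38 to 1.84), where 29 of 35 suprabasal cells had the second label. *Epcam* was lower on the basal side in the E15 esophagus (-0.36, -0.68 to -0.02). It was also lower there in pups (-1.20 and -1.30) and higher in adults (0.75 and 0.72), with all 4 intervals clear of 0. The pup esophageal value is thus mostly a contrast of the 2 labels, while in the pup GE-SCJ 2 of 11 suprabasal cells had the second label. Suprabasal cells had the higher median UMIs in all 7 samples, from 14280 against 14064 in the E15 esophagus to 22959 against 9232 in the adult GE-SCJ. The medians were 15171 against 7819 in the adult esophagus and 22566 against 11608 in the pup GE-SCJ. The part of this depth was not tested.

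**Figure D4:**
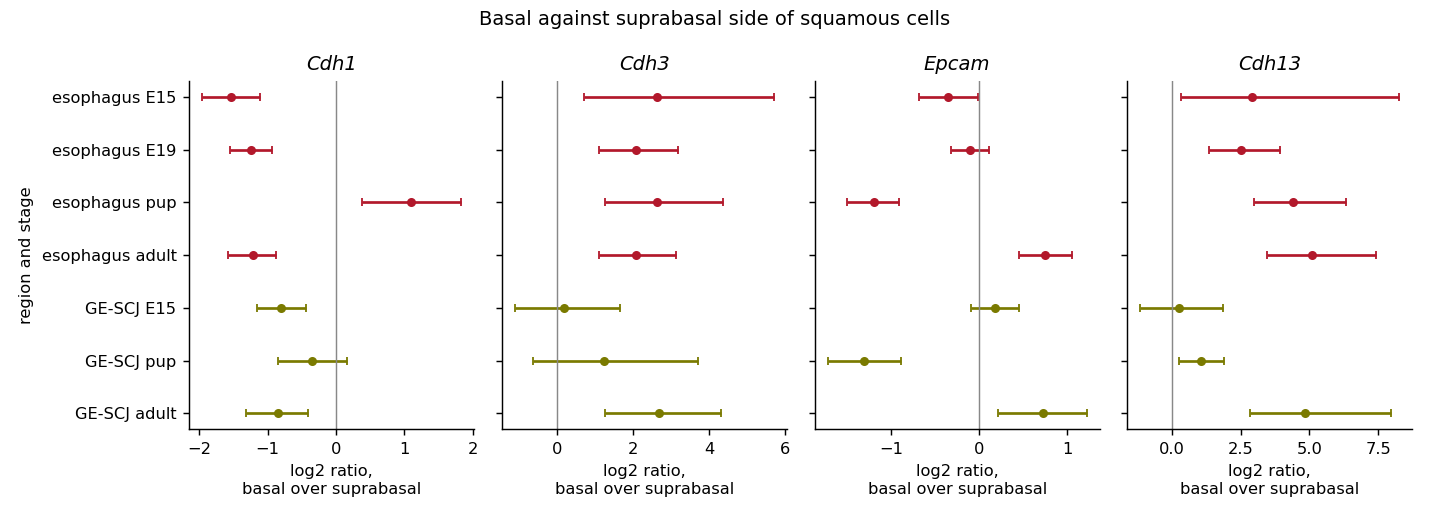
Log2 ratio of CPM on the basal over the suprabasal side of squamous cells in 7 samples, with exact 95% counting intervals after adding 1 UMI to each side. *Cdh13* lies to the right of 0 in all 7, though its interval reaches 0 in the GE-SCJ at E15. *Cdh1* lies to the left in 6, while *Epcam* changes side between pup and adult samples.

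In fibroblasts *Cdh11* was lower at each later stage in the esophagus, which had the highest level at E15 and did not differ beyond counting error from the other regions in pups. The levels from E15 to adult were 558, 410.2, 247 and 129.98 CPM in the esophagus, 400.1, 357, 274 and 188 CPM in the GE-SCJ, and 347, 347 and 279.9 CPM in the stomach without adults. The 4 esophageal intervals did not overlap. The log2 ratio of esophagus to stomach was 0.68 (0.58 to 0.78) at E15, 0.24 (0.16 to 0.32) at E19 and -0.18 (-0.53 to 0.17) in pups. From E15 to pup the esophageal ratio was -1.17 (-1.41 to -0.93) and the stomach ratio -0.30 (-0.58 to -0.04). Of the 2 members tested from E15 to pup in the esophagus, *Cdh2* and *Cdh11*, both were past 2-fold and lower, with a background of 20.8% of genes. *Cdh2* reached the minimum of UMIs only through E15, with 132 UMIs against 9 in pups, so its place in the count says little. Its ratio of -1.13 rests on those 9 pup UMIs. The ratio was -0.78 as a mean of cell CPM and -0.69 without the 10% of cells with most UMIs, under 2-fold in both. Between esophagus and stomach at E15 none of 3 was, with a background of 5.04%.

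The *Cdh11* share of thinned fibroblasts was 90.1% in the esophagus at E15 (86.3% to 93.1%) against 77.8% in the stomach (72.9% to 82.2%), and 50% against 54.5% in pups. Pup fibroblasts were shallow, with medians of 3859 to 5072.5 UMIs, so thinning left 34 of 151 esophageal cells. They also held more columnar marker UMIs, 3534 to 4640 CPM against 1649 to 2213 CPM before birth. *Cdh1* in pup stomach fibroblasts, at 60.5 CPM, moved with these, and its source was not tested.

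*Cdh2* in fibroblasts was higher at E15 than at E19 or in pups in all regions, at 34.6 CPM in the esophagus, 45.4 in the GE-SCJ and 45.6 in the stomach. At E19 it was 16.9, 22.9 and 25.9 CPM, and each regional interval lay below its E15 interval. In pups it was 14.3, 7.62 and 2.24 CPM, from 9, 3 and 1 UMIs. The stomach ratio of pup to E15 was -3.36 (-6.41 to -1.48). Adult esophageal fibroblasts had none in 31 cells, where 3 counts would be 18.6 CPM. The adult GE-SCJ had 93.8 CPM from 11 UMIs in 15 cells, 8 of them in 1 cell, and neural markers summed to 555 CPM there against 7.62 to 43.3 CPM in other fibroblast samples. Its part was not tested.

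*Cdh3* in fibroblasts was lower in the esophagus, at 3.15 CPM against 11.7 in the GE-SCJ and 14.4 in the stomach at E15, a ratio of esophagus to stomach of -2.10 (-3.10 to -1.22). At E19 the levels were 2.44, 11.2 and 9.07 CPM, the same order of the esophagus against the rest. The esophageal levels lay within the immune background.

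**Figure D5:**
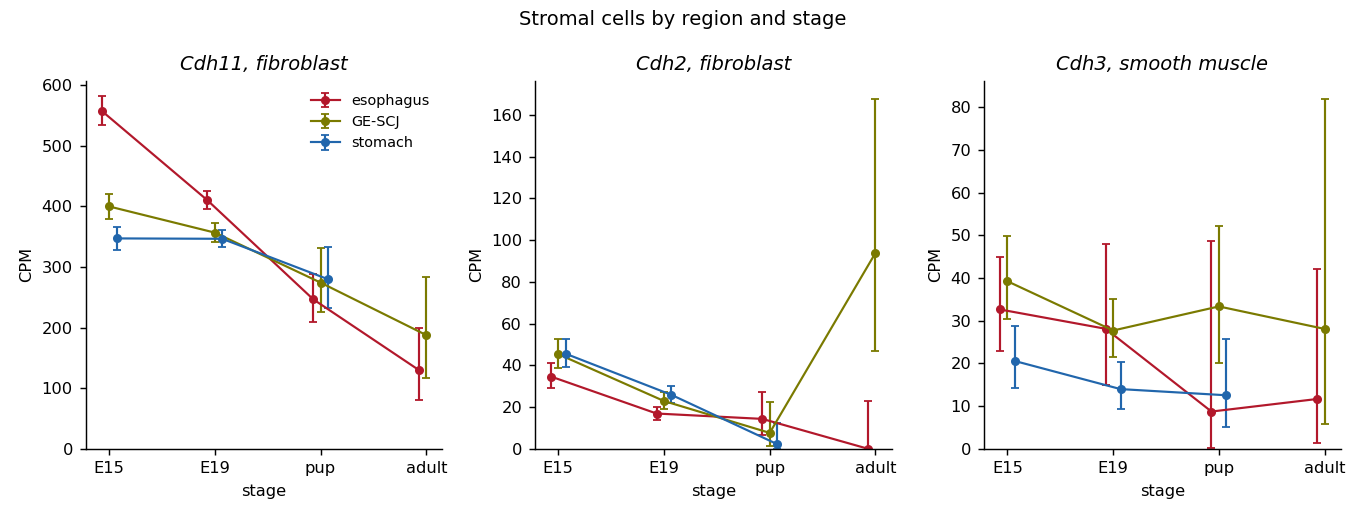
CPM of *Cdh11* and *Cdh2* in fibroblasts and of *Cdh3* in smooth muscle by stage and region, with exact 95% counting intervals. *Cdh11* of the esophagus starts highest at 558 CPM and ends at 129.98 CPM, and the adult GE-SCJ point of *Cdh2* (93.8 CPM) rests on 11 UMIs.

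*Cdh3* was found in all 11 smooth muscle samples, though by only 1 to 3 UMIs in the pup esophagus and both adult samples. The levels from E15 to adult were 39.3, 27.7, 33.4 and 28.1 CPM in the GE-SCJ, 32.6, 28.1, 8.72 and 11.7 CPM in the esophagus, and 20.6, 14.0 and 12.5 CPM in the stomach. At E15 the GE-SCJ interval (30.5 to 49.8) lay above that of the stomach (14.2 to 28.7), and the esophagus overlapped both. Against fibroblasts of the GE-SCJ the log2 ratio was 1.74 (1.18 to 2.31) at E15 and 1.31 (0.80 to 1.82) at E19. In the esophagus it was 3.30 (2.36 to 4.33) and 3.55 (2.43 to 4.64), and in the stomach 0.53 (-0.12 to 1.16) and 0.65 (-0.05 to 1.32), with intervals that reached 0. Mesothelial markers summed to at most 22.3 CPM in any smooth muscle sample, while second stromal cells had 2090 CPM. Whether such cells added to the *Cdh3* level of smooth muscle was not tested.

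*Cdh11* in smooth muscle stood at 244, 136, 122 and 46.7 CPM in the esophagus, 208, 244, 228 and 103 CPM in the GE-SCJ, and 247, 263 and 127 CPM in the stomach. The esophagus was lower at E19 than at E15, and the other regions were not. *Cdh2* was between 21.2 and 36.3 CPM at E15, and in the stomach 8.81 CPM at E19 (ratio -1.98, -2.83 to -1.21). The stomach held 60, 17 and 11 *Cdh2* UMIs in 111, 160 and 113 smooth muscle cells from E15 to pup. The GE-SCJ held 41, 58 and 4 in 131, 190 and 119 cells, with no such drop at E19. The esophagus held 24 in 93 cells at E15 and 1 in 42 cells at E19.

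Second stromal cells carried *Cdh3* at 102 to 146 CPM in the 4 samples with at least 15 cells, all overlapping. With thinning, 27.5% of 120 cells had both *Cdh3* and *Cdh11* UMIs, 42.5% *Cdh11* alone and 17.5% *Cdh3* alone.

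Neural cells carried *Cdh2* at a lower level in the esophagus than in the other regions at E15 and in pups. At E15 it stood at 381 CPM (340.5 to 426) in the esophagus, 535 CPM (469.9 to 606) in the GE-SCJ and 624 CPM (575 to 677) in the stomach. At E19 the values were 358, 488 and 620.5 CPM, the first from 11 cells, and in pups 253, 671 and 521 CPM from 24, 15 and 20 cells. The esophagus overlapped the GE-SCJ at E19, and the GE-SCJ and stomach overlapped at E15 and in pups. *Cdh2* also differed between the glial and neuronal sides of this class, as given under other observations. The part of their mix in the regional levels was not tested. Against fibroblasts of the stomach at E15 the log2 ratio was 3.77 (3.52 to 4.02).

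Endothelial cells of all regions had *Cdh13* at 12.9 CPM at E15, 43.4 at E19, 43.0 in pups and 242 in adults. The last is from 15 UMIs in 21 cells, none of them of the stomach. Vascular endothelial cadherin, *Cdh5*, stood at 960 CPM in this class as a check of the label.

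Between epithelium and fibroblasts at E15, 4 of the 6 members held enough UMIs, and each passed that minimum through the class where it was high, so that all 4 being past 2-fold says little beyond the class levels. In the stomach the log2 ratios of columnar to fibroblast were 3.91 for *Cdh1*, 5.87 for *Epcam*, -3.66 for *Cdh2* and -5.53 for *Cdh11*, with a background of 27.7% of genes. In the esophagus those of squamous to fibroblast were 3.55, 5.10, -3.52 and -2.67, with a background of 22%. These are contrasts of labels drawn from the same cells.

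Genes known as partners or regulators of the members were read in the same comparisons. Most of these, too, reached the minimum of UMIs only through the class where they were high. Values are therefore given rather than counts, apart from the catenins and linkers. Among repressors of *Cdh1*, *Snai2* stood at 4.40 CPM in columnar cells against 397 CPM in fibroblasts of the stomach at E15, and *Zeb2* at 9.06 against 764 CPM. In the esophagus *Zeb1* stood at 3.05 CPM in squamous cells against 90.8 CPM and *Snai2* at 62.1 against 168 CPM. Among epithelial activators, *Klf5* stood at 684 against 13.1 CPM and *Grhl2* at 32.1 against 1.05 CPM in the stomach, and *Klf4* in the esophagus was lower in squamous cells than in fibroblasts (-1.07). Among known partners of *Epcam*, *Cldn7*, a claudin that binds it, was at 786 against 7.60 CPM in the stomach. Catenins and linkers were past 2-fold in 4 of 8 in the stomach, where 27.7% of all genes were, and in 4 of 7 in the esophagus, where 22% were. Those past 2-fold were all higher in epithelium, with *Jup* (plakoglobin) at 184 against 24.1 CPM in the esophagus. *Plekha7*, at 36.0 against 4.98 CPM in the stomach, entered that count mainly through columnar cells. *Jup* in the esophagus drew most of its UMIs from squamous cells. These counts therefore carry part of the same limit. *Ctnnb1* (beta-catenin) was found in every class, from 166 CPM in immune to 700.2 CPM in endothelial cells.

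Between squamous and columnar cells of the GE-SCJ the *Epcam* partner *Tspan8*, a tetraspanin, differed more than *Epcam* itself. It stood at 34.3 against 469.9 CPM at E15 (-3.73, -4.29 to -3.22) and at 70.2 against 671 CPM in pups (-3.23, -3.67 to -2.82), lower in squamous cells at both stages. *Cd9*, another tetraspanin, was higher in squamous cells of pups by 2.04 and *Cldn7* by 1.51. *Jup* was higher in squamous cells (1.49 and 1.42), the 1 gene past 2-fold of 8 catenins and linkers tested at E15, and in pups *Pkp4* (1.19) joined it, making 2 of 8. These shares lie near the 9.67% and 24.1% of all genes. *Nectin1*, which encodes another adhesion molecule of these junctions, was higher in squamous cells at 2.58 and 3.80, while its relative *Nectin2* was at -0.88 and -0.95. *Nectin3* in pups had no UMI in squamous cells against 18.3 CPM in columnar cells (-3.63, -8.94 to -1.13). It reached the minimum of UMIs only through columnar cells.

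Over 54 groups, the genes whose log2(CPM + 10) was most like *Cdh1* were *Fxyd3* (r 0.95), *Klf5*, *Epcam* and *Spint2* (each 0.94) and *Crb3* (0.92), of 11672 genes compared. For *Epcam* they were *Crb3* (0.96), *Fermt1* and *Fxyd3* (0.95), and *Klf5* and *Foxa1* (0.94). For *Cdh11* the first were *Rcn3*, *Col1a1*, *Scarf2*, *Col5a1* and *Ogn* (each 0.90), and for *Cdh2* *Lrrc4b* (0.93), *Nell2*, *Slc35f1*, *Slitrk5* and *5033428I22Rik* (each 0.92). *Cdh3* and *Cdh13* had no such close pattern, with *Ptpn14* (0.76), *Nxn* (0.75), *Itga3* (0.73), *Frem2* (0.72) and *Hspb1* (0.71) for the former and *Prss22* (0.70), *Hopx* (0.69), *Cd109* (0.67) and *Col7a1* (0.65) for the latter. The groups share 1 library and most of the contrast is between classes, so these values describe these groups only.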

How the data were processed

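UMI counts of 1 multiplexed library (10x Genomics 3′ chemistry with CellPlex tags) were deposited by the authors without normalization, after Cell Ranger 6.1.1 on mm10 (GRCm38), tag assignment and removal of likely doublets and poor cells. The percent of mitochondrial UMIs and the cluster label of each cell were deposited by the authors too, and the labels come from clustering the same cells. The cells kept had 519 to 79817 UMIs, 376 to 8473 genes and at most 19.7% mitochondrial UMIs. Adhesion genes can be changed by enzymatic dissociation, which was not tested.

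The members, marker lists and partner lists were chosen with earlier results of these data known. UMIs were summed by class, region and stage and divided by the sum of all UMIs to give CPM. Intervals were exact Poisson for CPM, Clopper-Pearson for shares and conditional binomial for log2 ratios, which had 1 UMI added to each sum. A level of 0 of a member is given with the value of 3 counts. A gene was counted as past 2-fold where both groups together held at least 100 UMIs. Named genes are the 6 members, the 5 genes most like each, and the listed genes with the largest ratios, some of which are not reported here. Mice were pooled within a sample, so no test was run. No doublet caller was run here, and the 10% of cells with the most UMIs were left out as an alternative. Because all cells come from 1 library, batches between libraries do not arise, and no adult stomach cells were analysed here. The code was tested on simulated data and ran with Python 3.11.15, numpy 2.4.6, scipy 1.17.1 and pandas 2.3.3. The alternatives also changed how cells were combined, the library size, the labels, the thinning depth, the count minimum, the likeness measure and the keratins of the basal split. Positions are those of GENCODE on GRCm38, and the upstream sequence is from RefSeq on GRCm38.p6.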

Additional observations from a re-analysis of the deposited data

Results flagged for a closer look

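For 3 pairs of values the same stage contrast had opposite signs in the esophagus and the GE-SCJ, with neither interval reaching 0. None of these differences between regions was tested, since each region and stage was 1 pooled sample.

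*Epcam* in squamous cells had a log2 ratio of pup to E19 of 0.21 (0.04 to 0.38) in the esophagus and -0.79 (-1.06 to -0.53) in the GE-SCJ. Without cells of the second squamous label the esophageal ratio was -0.52.

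*Cdh11* in smooth muscle had a log2 ratio of E19 to E15 of -0.83 (-1.24 to -0.43) in the esophagus, from 42 cells at E19, and 0.23 (0.04 to 0.42) in the GE-SCJ, from 190 cells.

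*Cdh11* in squamous cells had a log2 ratio of E19 to E15 of -1.90 (-2.48 to -1.35) in the esophagus and 2.07 (0.27 to 4.20) in the GE-SCJ, where it rests on 9 against 3 UMIs. The fibroblast marker list moved the same way, from 1872 to 1360 CPM in the esophagus and from 351 to 1219 CPM in the GE-SCJ, and its part was not tested.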

How the results depend on the processing

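Over 31 ratios of the members and 6 planned settings, 168 of 186 values stayed within the counting interval, 16 moved beyond it and 2 changed sign, with a median move of 0.082 and a largest of 0.84 for *Epcam* in pup GE-SCJ squamous against columnar cells (-0.59 to -1.44). *Epcam* in esophageal squamous cells, pup to E19, changed from 0.21 to -0.030 with the mean of cell CPM, -0.012 after leaving out the deepest 10% of cells, and -0.52 without the second squamous label, a setting chosen after seeing the data. The last also took *Cdh13* from 1.66 to 2.39. Leaving the esophagus out of the columnar class, also chosen after seeing the data, took *Cdh11* there from 7.82 to 5.88 CPM. *Epcam* in stomach columnar cells, pup to E15, was -0.82 with the mean of cell CPM, -0.80 under stricter cell limits (1000 UMIs as the minimum, 10% mitochondrial as the maximum), and -0.99 with a library size without mitochondrial, ribosomal protein and hemoglobin genes. *Epcam* in esophageal squamous cells, adult to E15, was -1.53 and -1.50 with the mean and without the deepest cells. That library size raises every level and gave 664 CPM for *Cdh2* in neural cells, 148 for *Cdh3* in second stromal and 49.0 for *Cdh13* in endothelial cells. It shifts every gene by 0.32 in squamous against columnar pup GE-SCJ cells, where *Cdh1* became 0.32. Marker-matched labels gave 554 CPM for *Cdh2*, and the mean of cell CPM gave 65.6 for *Cdh13*. The share of E15 esophageal squamous cells with *Cdh3*, 22.4% when thinned, was 50% at own depth and 5.17% at 2 UMIs or more. With *Krt14* and *Krt13* alone, the basal ratio of *Cdh3* was 1.48 and that of *Epcam* turned to -0.68. The share of genes past 2-fold in GE-SCJ squamous against columnar cells at E15 was 20.6% with no count minimum. Of the 5 genes most like a member, 0 to 5 remained under other likeness settings. Apart from what each setting removes by construction, the cause was not tested. No paired analysis was possible because each condition had 1 pooled sample and the labels give no replicate numbers, though ratios between classes compare cells of the same sample within a region. Genes under about 10 CPM, *Cdh3* and *Cdh13* in most groups, are limited by depth, and adult stroma by its 15 to 31 cells.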

Other observations

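The neural class was split by whether glial or neuronal marker UMIs were more numerous, a split chosen after seeing the data, into 308 and 103 cells. *Cdh2* was at 573 CPM (544 to 604) on the glial and 399 CPM (364 to 436) on the neuronal side. *Cdh19*, a cadherin of glial precursors, was at 112 CPM on the glial and 13.9 CPM on the neuronal side, and *Cdh6* was at 203 and 246 CPM. *Cdh2* was thus found on both sides, with *Cdh19* mainly on the former.

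Among the 17 other genes named as cadherins, none had enough UMIs for the contrasts of epithelium with fibroblasts or of squamous with columnar cells, and *Cdh6* was higher in esophageal than in stomach fibroblasts at E15, at 19.9 against 6.55 CPM (log2 ratio 1.57, 0.91 to 2.27).

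The 20 cells of E19 and 9 cells of E15 labelled columnar in the esophagus held fibroblast markers at 5807 and 8045 CPM, against 224 to 835 CPM in columnar samples of the GE-SCJ and stomach, and *Cdh11* there was at 54.5 and 220.1 CPM. They were not used in the ratios above, and the values of the whole columnar class include them.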
